A study of Mus musculus with 8 samples.

Results

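The CIP/KIP and INK4 proteins are the inhibitors of the cyclin-dependent kinases (CDKs) that drive cells through the division cycle, and their 7 genes were compared between wild-type and cryptochrome-deficient mouse embryonic fibroblasts. The members are all probe sets of the array that the platform annotation assigns to Cdkn1a, Cdkn1b, Cdkn1c, Cdkn2a, Cdkn2b, Cdkn2c or Cdkn2d alone: 9 of the 30506 probe sets in the table, for 7 of the 9511 genes tested. A probe set is a group of short probes on an Affymetrix 3' expression array that are summarised to 1 value. Each of Cdkn1a and Cdkn1b had 2 probe sets, and the other genes had 1. All 9 lay above the floor used to leave out dim probe sets, which was a mean signal of 6.06 on the log2 scale over the 8 arrays.

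The WT group is 4 wild-type lines, and the Cry DKO group is 4 lines of genotype Cry1-/-|Cry2-/-, which lack both cryptochromes, the repressors of the circadian clock. Per the labels, the lines are independent primary fibroblasts from embryos of a near-C57BL/6J background, reached by more than 7 backcrosses. Both groups received no treatment and proliferated without synchronisation in DMEM/F10 with 10% FCS at 3% oxygen. Each line gave 1 array of total RNA, so a value averages over a culture of unsynchronised cells.

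The CIP/KIP proteins p21 (Cdkn1a), p27 (Cdkn1b) and p57 (Cdkn1c) bind complexes of cyclins with CDKs and block above all CDK2, while they can also help cyclin D assemble with CDK4 and CDK6. The INK4 proteins p16 (Cdkn2a), p15 (Cdkn2b), p18 (Cdkn2c) and p19INK4d (Cdkn2d) bind CDK4 and CDK6 themselves and keep the D cyclins away. With the kinases held back, the retinoblastoma pocket proteins stay active and keep E2F factors from switching on the genes of S phase. In cultured embryonic fibroblasts, Cdkn1a and the Cdkn2a locus are known for their part in growth arrest under stress and in senescence.

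In Cry DKO lines 4 of the 7 inhibitors were lower and 1 was higher. Cdkn1c fell by 1.17 on the log2 scale, which is 2.25-fold, Cdkn2b fell by 0.52, Cdkn1a fell by 0.42 and Cdkn2a fell by 0.42. Cdkn2c rose by 0.48, and Cdkn1b and Cdkn2d did not pass the test. A gene passed at an adjusted p under 0.05 in limma, with Benjamini-Hochberg adjustment over all 9511 genes. Over all tested genes 9.18% passed, 4.23% as lower and 4.95% as higher in Cry DKO lines. The median difference was -0.42 over the 7 inhibitors and -0.01 over all genes. No overlap between the genotypes was seen for 5 of the 7 inhibitors, and for 16.8% of all genes. Of the 9 probe sets, 5 were called lower and 1 higher, beside 3.14% and 3.67% of all probe sets, and 6 had no overlap, beside 15.4%. Every difference below is the Cry DKO mean less the WT mean in log2 units (n = 4 lines in each group), given with its SE, while group means carry their SD. Signals of different probe sets are not on a common scale, so levels are compared only within a probe set.

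**Figure D1:**
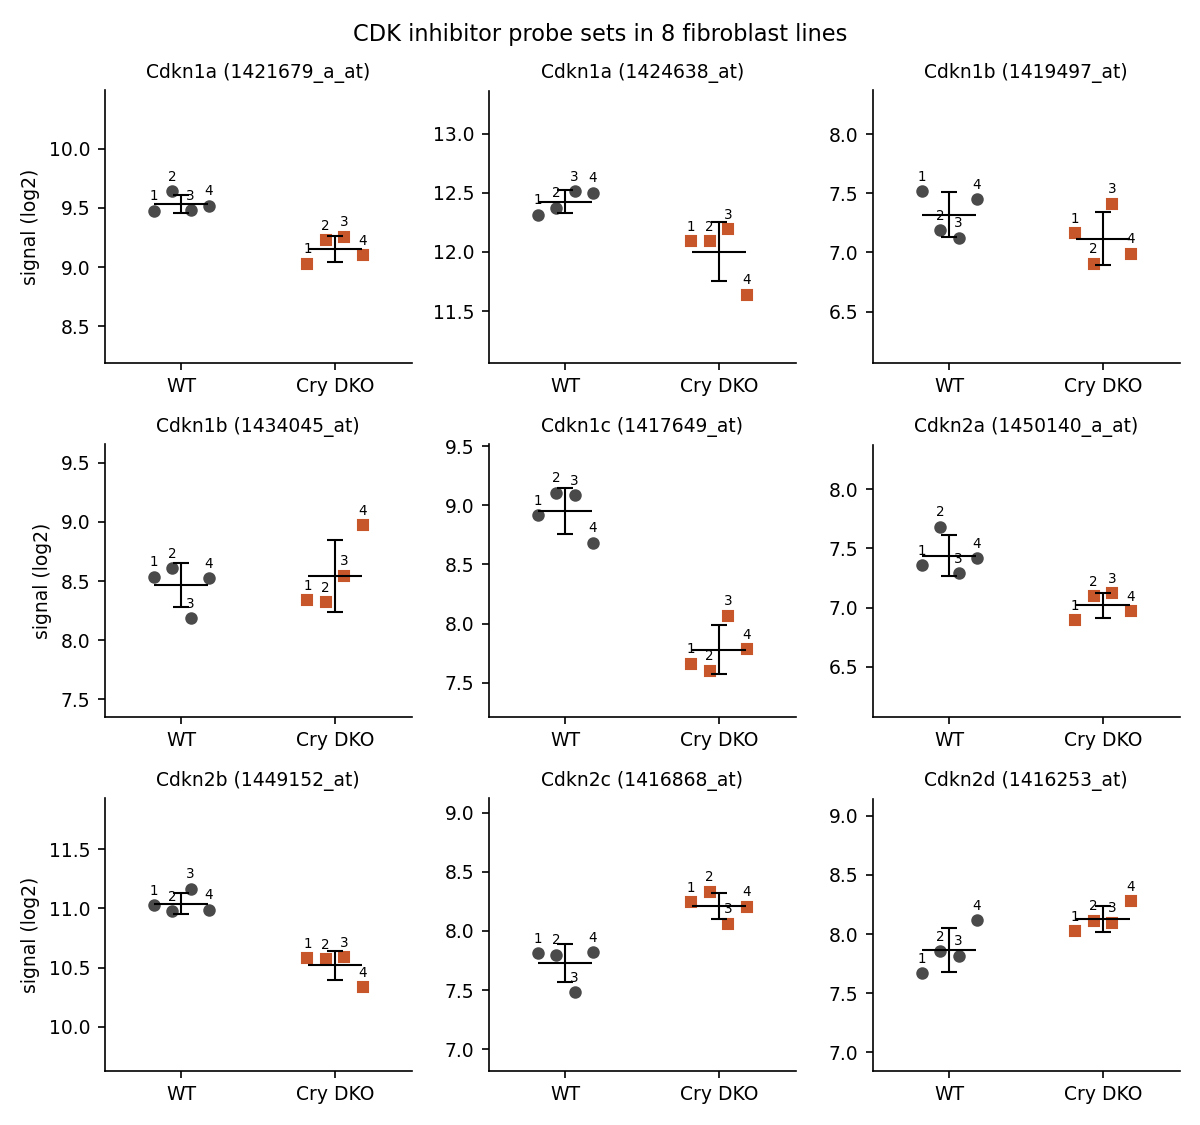
Log2 signal of each of the 9 probe sets in the 8 lines, with WT as circles and Cry DKO as squares; the numbers are the replicate numbers, long bars the group means and whiskers the SD (n = 4), and all panels span the same range. The groups are separate for both Cdkn1a probe sets, Cdkn1c, Cdkn2a, Cdkn2b and Cdkn2c, and overlap for both Cdkn1b probe sets and Cdkn2d.

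Promoter sequences from RefSeq (build GRCm38.p6) were found for 6 of the 7 genes, in 9 windows of 250 bases before to 50 after a start site. They are shown for the 3 genes where the letters bear on a gene group measured here: the p53 axis, the clock, and the separate start sites of Cdkn2a, a gene with 1 probe set here. The bases before the upstream start of Cdkn1a hold a match to the p53 response element, shown in capitals, at chr17:29090729-29090978 on the plus strand.
Cdkn1a, upstream start: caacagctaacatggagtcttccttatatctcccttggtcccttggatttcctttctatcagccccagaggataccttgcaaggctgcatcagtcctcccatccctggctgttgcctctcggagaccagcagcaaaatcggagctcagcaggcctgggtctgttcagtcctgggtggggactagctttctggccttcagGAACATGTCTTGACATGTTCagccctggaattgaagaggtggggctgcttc
The search was for the 20-base p53 consensus with no spacer and at most 1 mismatch, and 0.0883% of all 32851 promoter windows hold such a match. Among the 9 windows of the inhibitors this 1 matched, at positions -51 to -32 from the start.

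Cdkn2a has separate start sites for its 2 products, the p53-stabilising protein ARF from the upstream start and p16 from the downstream one. The windows are at chr4:89294620-89294869 and chr4:89282193-89282442, both on the minus strand. In the upstream one the capitals mark an E2F motif (TTTCCCGC) and 2 GC boxes (GGGCGG), and in the downstream one the core of an ROR element (AGGTCA).
Cdkn2a, upstream start: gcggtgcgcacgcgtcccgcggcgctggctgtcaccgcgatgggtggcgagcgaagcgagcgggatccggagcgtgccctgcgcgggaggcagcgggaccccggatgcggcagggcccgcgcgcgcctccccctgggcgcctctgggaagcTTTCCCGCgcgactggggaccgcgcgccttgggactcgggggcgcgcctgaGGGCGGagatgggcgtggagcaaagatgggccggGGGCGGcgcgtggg
Cdkn2a, downstream start: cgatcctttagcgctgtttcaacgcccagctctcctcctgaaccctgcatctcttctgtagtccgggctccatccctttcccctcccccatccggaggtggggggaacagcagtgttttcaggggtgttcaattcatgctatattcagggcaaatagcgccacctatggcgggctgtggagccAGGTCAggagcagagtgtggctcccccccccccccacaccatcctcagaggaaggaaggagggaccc
Both strands were searched. The E2F motif is in 1.07% of all windows, the GC box in 35.7% and the ROR core in 16.3%. Of the 9 windows of the inhibitors, 1 holds the E2F motif, 7 a GC box and 2 the ROR core. The other ROR core is in the downstream window of Cdkn2c. The median share of G and C over all windows is 52.7%, and every inhibitor window but the downstream one of Cdkn2c (44.0%) lies above it. The upstream window of Cdkn2a is the highest at 77.0%. The GC box count was not adjusted for this composition.

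The E-box CACGTG, the element bound by CLOCK and ARNTL, occurs in 7.15% of all windows and in 1 of the 9. That window belongs to the downstream start of Cdkn2c, and the E-box lies 35 to 40 bases after the start. The 30 bases around it are at chr4:109665323-109665352 on the minus strand, with the E-box in capitals.
Cdkn2c, downstream start: ttttgctgaataatCACGTGtgaatcgagg
The D-box motifs TTATGTAA and TTACGTAA, sites of the DBP family, are in 0 of the 9 windows and in 0.938% and 0.119% of all windows. A match is a run of letters, and no binding was measured.

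Cdkn1c, which encodes p57, had the lowest difference of the group and the 13th lowest of all 9511 genes. WT lines gave 8.92, 9.11, 9.09 and 8.68 for replicates 1 to 4, and Cry DKO lines gave 7.66, 7.60, 8.07 and 7.78. Each Cry DKO line was below each WT line, and the gap between the nearest lines, Cry DKO replicate 3 and WT replicate 4, was wider than either SD. The WT mean was 8.95 ± 0.20 (SD, n = 4) and the Cry DKO mean 7.78 ± 0.21, which differ by -1.17 (SE 0.12, 95% interval -1.43 to -0.91, limma adjusted p = 0.000477). It passed in each of the 8 fits that leave out 1 array, with differences from -1.27 to -1.11.

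Cdkn1a encodes p21, the inhibitor that p53 induces. Its brighter probe set gave 12.3, 12.4, 12.5 and 12.5 in WT lines and 12.1, 12.1, 12.2 and 11.6 in Cry DKO lines. The Cry DKO lines were all lower, and replicate 4 was the lowest of them. The difference was -0.42 (SE 0.10, limma adjusted p = 0.0305). Its dimmer probe set, whose ID suffix marks probes that match several transcripts of 1 gene, gave 9.48, 9.64, 9.48 and 9.52 in WT and 9.03, 9.23, 9.26 and 9.10 in Cry DKO lines. Its groups were separate too, with a difference of -0.38 (SE 0.07) and an adjusted p of 0.0127 in the limma fit of all 16333 probe sets, where 6.81% passed. The gap between the probe sets changed by -0.05 between genotypes (exact two-sided permutation p = 0.771). The call of the brighter probe set ended without WT replicate 2 (adjusted p = 0.0615), WT replicate 3 (0.0843) or WT replicate 4 (0.0728) in the limma gene fit, at differences of -0.44, -0.39 and -0.40. Among all probe sets the call of the brighter one was lost in 6 of 8 leave-one-out fits, and that of the dimmer one in 0 of 8. Without WT replicate 2, 3 or 4, 3 of the 7 inhibitor genes were called in place of 5. Over all genes, those fits called 472, 386 and 591 in place of 873.

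Cdkn1b, which encodes p27, had probe sets that pointed to opposite sides of 0 without passing. The brighter one gave 8.54, 8.61, 8.19 and 8.53 in WT and 8.34, 8.32, 8.55 and 8.97 in the Cry DKO group. The genotypes differed by 0.08 (SE 0.14, 95% interval -0.24 to 0.39, limma adjusted p = 0.78). The dimmer one gave 7.52, 7.19, 7.12 and 7.45 in WT and 7.16, 6.91, 7.41 and 6.99 in the Cry DKO group. Its change was -0.20 (SE 0.13, 95% interval -0.50 to 0.09, adjusted p = 0.401 in the limma probe set fit). The genotypes overlapped in both. The intervals leave room for a change of either sign, and end short of the size measured for Cdkn1c. The gap between the probe sets differed by 0.28 between genotypes, which did not pass (exact two-sided permutation p = 0.20); this comparison and that for Cdkn1a were chosen after the values were seen.

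Cdkn2b encodes p15, the INK4 inhibitor that TGF-beta signalling induces. WT lines gave 11.0, 11.0, 11.2 and 11.0, and Cry DKO lines 10.6, 10.6, 10.6 and 10.3. The groups were well apart, and each mean had a small SD (11.0 ± 0.09 for WT and 10.5 ± 0.12 in Cry DKO, as SD over 4 lines). The difference was -0.52 (SE 0.07, limma adjusted p = 0.00211), and it passed in all 8 fits without 1 array, from -0.545 to -0.462.

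Cdkn2a gave 7.36, 7.68, 7.29 and 7.42 in WT and 6.89, 7.09, 7.12 and 6.97 in Cry DKO lines. Every Cry DKO line was below every WT line, but the nearest lines, Cry DKO replicate 3 and WT replicate 3, were close. The difference was -0.42 (SE 0.11, limma adjusted p = 0.0382). The call is fragile: it ended whichever of the 8 arrays was left out, with adjusted p from 0.0562 to 0.0917 at differences from -0.47 to -0.33. The probe set has the same ID suffix as the dimmer Cdkn1a one, for probes that match several transcripts of 1 gene. The sources used here do not say whether it reads ARF, p16 or both.

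Cdkn2c, which encodes p18, moved the other way. WT lines gave 7.81, 7.80, 7.48 and 7.82, and Cry DKO lines gave 8.24, 8.33, 8.06 and 8.20. All Cry DKO lines were higher, and replicate 3 was the lowest line in both genotypes. The difference was 0.48 (SE 0.10, 95% interval 0.27 to 0.70, limma adjusted p = 0.0149), and it passed in all 8 fits without 1 array, from 0.40 to 0.53.

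Cdkn2d, the gene of p19INK4d, gave 7.67, 7.86, 7.82 and 8.12 in WT and 8.02, 8.11, 8.10 and 8.28 in Cry DKO lines. The groups overlapped through WT replicate 4. The difference of 0.26 (SE 0.10, 95% interval 0.04 to 0.49) did not pass after adjustment (limma adjusted p = 0.136), and its unadjusted p was 0.0252.

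**Figure D2:**
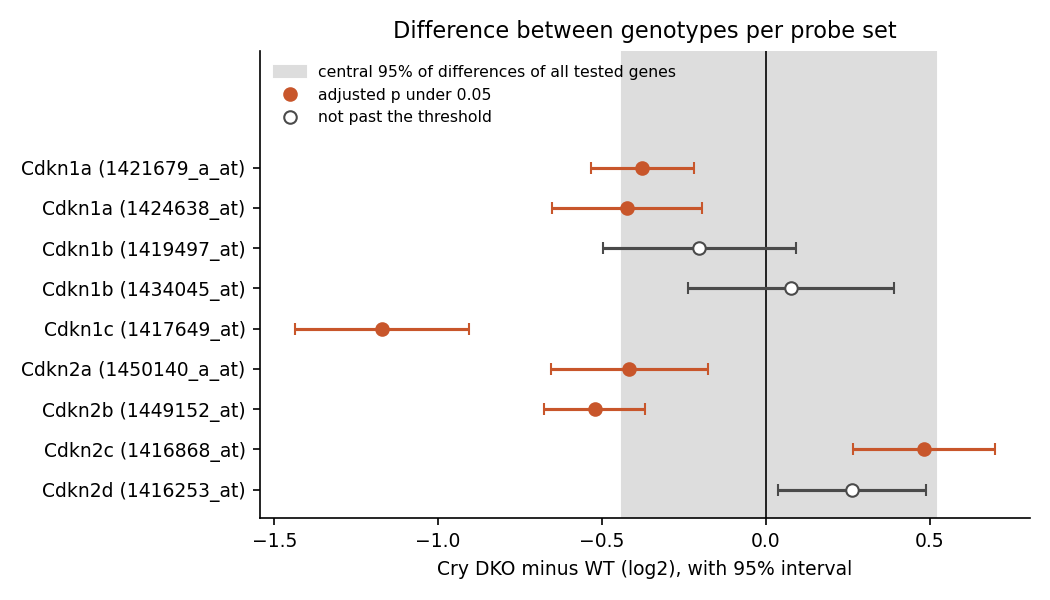
Difference between genotypes (Cry DKO minus WT, log2) of each probe set, with its 95% interval from the limma probe set fit; filled points passed an adjusted p of 0.05, and the grey band holds the central 95% of the differences of all tested genes (-0.44 to 0.52). The Cdkn1c interval lies wholly below the band, and the other differences lie between -0.52 and 0.48.

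Members of 1 family were also set against each other within each array, which tests whether their changes between genotypes differ. There were 9 such pairs, 3 in CIP/KIP and 6 in INK4, tested with exact two-sided permutation over the 70 assignments of lines, where the smallest possible p is 0.0286. In CIP/KIP, Cdkn1a minus Cdkn1c was 0.75 higher in Cry DKO than in WT lines, and Cdkn1b minus Cdkn1c was 1.25 higher (exact p = 0.0286 for each, 0.0429 after Benjamini-Hochberg adjustment over the 9 pairs). Without 1 line Cdkn1b minus Cdkn1c stayed at the smallest p in all 8 cases, while Cdkn1a minus Cdkn1c gave an exact p of 0.0571 in 7 of 8 (values over all 8 from 0.66 to 0.87). The genotypes did not overlap in any of these cases. With groups of unequal size the exact p can rise without any overlap, so the 0.0571 does not show that the result rests on single lines. Cdkn1a minus Cdkn1b differed by -0.50 (exact p = 0.0571, adjusted 0.0735), which did not pass. That value rested on single lines: it was -0.23 without Cry DKO replicate 4 (exact p = 0.171) and -0.60 without Cry DKO replicate 2 (exact p = 0.0286).

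In INK4 the changes of Cdkn2a and Cdkn2b differed from those of Cdkn2c and Cdkn2d, of which Cdkn2d did not pass on its own. Cdkn2b minus Cdkn2c averaged 3.31 ± 0.25 (SD, n = 4) over WT and 2.31 ± 0.17 over Cry DKO lines, a shift of -1.005, and Cdkn2a minus Cdkn2c shifted by -0.90. Against Cdkn2d the shifts were -0.79 for Cdkn2b and -0.68 for Cdkn2a. In these 4 pairs the genotypes did not overlap (exact p = 0.0286 each, 0.0429 adjusted over the 9 pairs). For the pairs against Cdkn2c this was fixed in advance, as Cdkn2a and Cdkn2b were lower and Cdkn2c higher in every Cry DKO line. Their p therefore adds nothing to the separation of the single genes. The changes of the neighbours Cdkn2a and Cdkn2b differed by 0.11 (exact p = 0.429), and those of Cdkn2c and Cdkn2d by 0.22 (exact p = 0.143), neither of which passed. Without 1 line, Cdkn2a minus Cdkn2b ran from 0.015 (without WT replicate 3, exact p = 0.857) to 0.21 (without WT replicate 2, exact p = 0.114). The shifts against Cdkn2d had an exact p of 0.0571 without Cry DKO replicate 4, at -0.67 for Cdkn2b and -0.61 for Cdkn2a. The genotypes still did not overlap there, as groups of unequal size can raise the exact p without any overlap. The shifts against Cdkn2c, where separation was fixed in advance, stayed at 0.0286 in all 8 cases.

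The genes beside each inhibitor were read next, as the 3 nearest tested genes on each side in the gene order of GRCm38.p6. Of 36 such genes outside the family 1 was higher and 4 were lower, with differences from -0.51 to 0.30. Over all tested genes 4.95% were called higher and 4.23% lower. Cdkn1c lies in an imprinted domain, where it is expressed from the maternal chromosome and silenced on the paternal one under control of the noncoding RNA Kcnq1ot1. Kcnq1ot1 itself stood at 0.03 (SE 0.08, limma adjusted p = 0.827). Nap1l4, a histone chaperone gene on the other side, had 0.07, the cysteinyl-tRNA synthetase gene Cars -0.05, Tssc4 -0.21 and the tetraspanin gene Cd81 -0.15, none of which passed. Tnfrsf22, a decoy receptor gene, fell by 0.39 (limma adjusted p = 0.0428), a call that ended in 7 of the 8 fits without 1 array.

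Cdkn2a and Cdkn2b lie next to each other, and both fell. The nearest tested genes around the pair did not pass. Mtap, the methylthioadenosine phosphorylase gene, had a difference of 0.05 (SE 0.05), Klhl9 0.11 and Hacd4 -0.11 on one side. On the other side Tusc1 had 0.07, Caap1 0.30 and Plaa 0.08. Between gene centres, Mtap, Klhl9 and Hacd4 lay at -125, -564 and -861 kb from Cdkn2a. Tusc1, Caap1 and Plaa lay at 4026, 5220 and 5276 kb from Cdkn2b, so no close gene was read on that side. Beside Cdkn1a, the splicing factor gene Srsf3 rose by 0.29 (limma adjusted p = 0.0109) and BC004004 fell by 0.21, while Stk38, Kctd20, Cpne5 and Ppil1 had differences from -0.16 to 0.13 that did not pass. Beside Cdkn2c, the ubiquitin ligase gene Rnf11 and the transcription factor gene Dmrta2 fell by 0.37 and 0.51, opposite to Cdkn2c. Leaving out 1 array ended those calls in 6 and 7 of 8 fits, and that of BC004004 in 5. None of the 6 neighbours of Cdkn1b or of the 6 of Cdkn2d passed in limma.

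**Figure D3:**
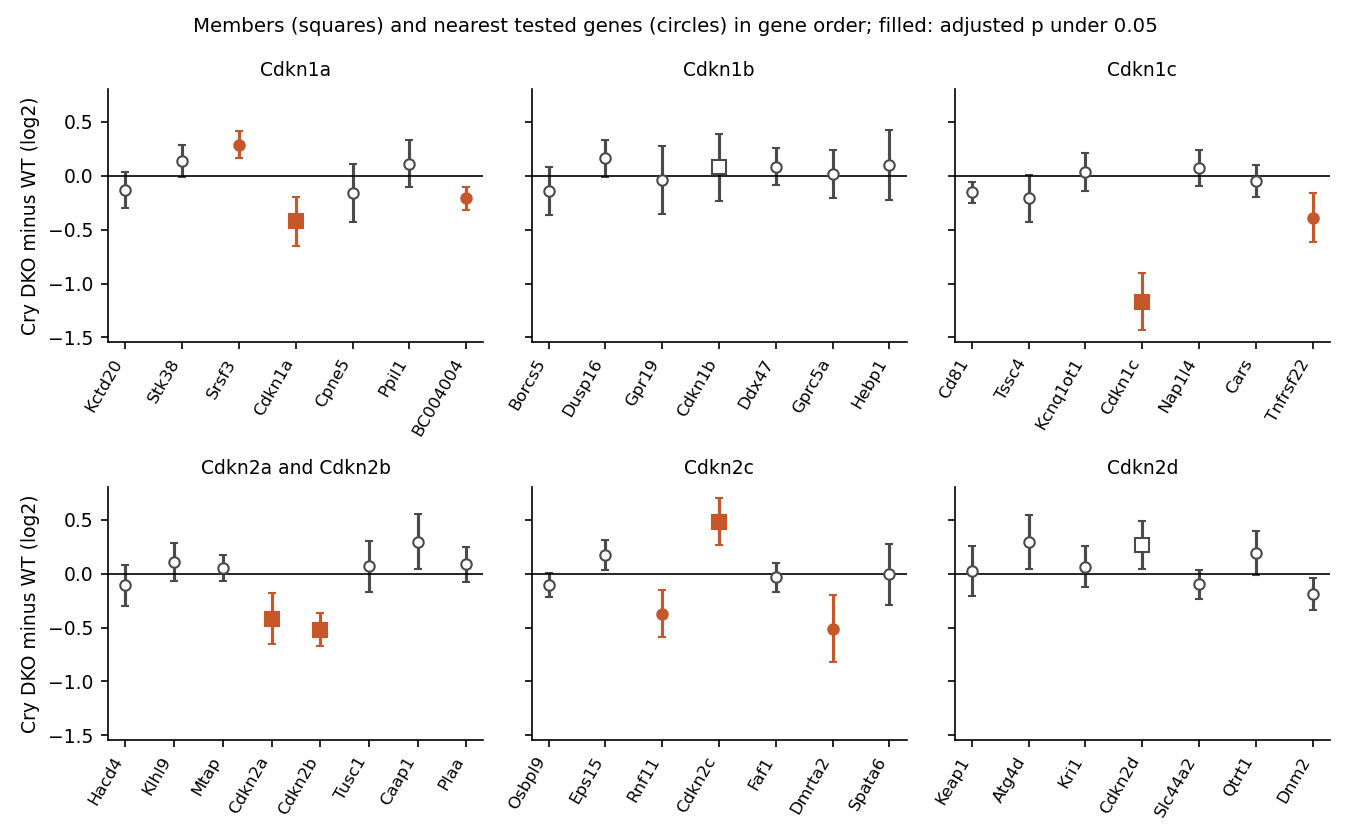
Difference between genotypes (Cry DKO minus WT, log2, with 95% intervals) of each inhibitor (squares) and of the nearest tested genes on each side (circles), in gene order but not to scale; filled symbols passed an adjusted p of 0.05. Cdkn1c stands at -1.17 between genes with differences of 0.03 and 0.07, and Cdkn2a and Cdkn2b stand at -0.42 and -0.52 between Mtap and Tusc1 at 0.05 and 0.07. Tusc1 lies 4026 kb from Cdkn2b.

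Lists of related genes were read next, and their counts stand beside 4.95% of all tested genes called higher and 4.23% called lower. The list of cyclins and CDKs also held Cdc25a, Cdc25b, Cdc25c and Mnat1, and not all its genes are targets of the inhibitors. Of its 17 tested genes 5 rose and none fell, with a median difference of 0.18. They were Ccne2 (0.66), the cyclin E partner of CDK2, Ccnb2 (0.46), Ccna2 (0.44), Cdk1 (0.41) and Cdk2 (0.37, SE 0.09, limma adjusted p = 0.0307), and the call of Cdk2 ended in 5 of 8 fits without 1 array. Ccne2 was named after its value was seen. The genes of the kinase and cyclin that INK4 proteins act on gave no call: Cdk4 had a difference of 0.03 (SE 0.05), and Ccnd1 one of 0.32 (SE 0.13, limma adjusted p = 0.148). Of 12 pocket protein and E2F genes, Rbl1, which encodes the pocket protein p107, rose by 0.39 and the repressor E2f6 fell by 0.23, a call that ended in 7 of 8 such fits. Rb1 had a difference of 0.11, and the DP partner gene Tfdp1 one of 0.22 (limma adjusted p = 0.0581).

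Of 19 genes for the turnover of the inhibitors and for the ubiquitin ligases of the cell cycle, 4 rose and none fell, with a median of 0.06. Cdc20, an activator of the anaphase-promoting complex, rose by 0.38, the importin gene Kpna2 by 0.35, Cks2 by 0.31 and Cks1b, the cofactor with which SKP2 recognises p27, by 0.17. The call of Cks1b ended in all 8 fits without 1 array and that of Cks2 in 5. Skp2 stood at 0.19 (SE 0.07, limma adjusted p = 0.125). Protein levels, where this control acts, were not measured.

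Of 22 Polycomb and other regulator genes of the Cdkn2a and Cdkn2b locus, 1 rose and none fell, beside 4.95% higher and 4.23% lower over all genes. It was Ezh2, the histone methyltransferase of Polycomb complex PRC2, up by 0.31 (limma adjusted p = 0.0451, ending in 6 of 8 fits without 1 array). Bmi1, a repressor of the locus, had a difference of 0.08 (SE 0.07), Twist1 one of -0.25 (adjusted p = 0.063) and Ets2 one of 0.33 (adjusted p = 0.0753). In the p53 axis 3 of 23 genes fell and none rose, beside the same shares over all genes. The 3 were Btg2, down by 0.39, Eda2r by 0.31 and the cyclin G1 gene Ccng1 by 0.165. Mdm2, a p53 target and p53's ubiquitin ligase, stood at -0.06 (SE 0.15, limma adjusted p = 0.843). The median over the list was -0.08. The calls of Eda2r, Ccng1 and Btg2 ended in 8, 7 and 3 of the 8 fits. With the mean of the macrophage markers, described below, as a covariate, Btg2 stood at -0.22 (limma adjusted p = 0.408) and Eda2r at -0.13 (adjusted p = 0.60). Ccng1 did not shrink in that fit and stood at -0.20 (limma adjusted p = 0.205).

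Of 23 TGF-beta and other transcriptional input genes, the ligand gene Tgfb3 fell by 0.34 (limma adjusted p = 0.0098) and Tsc22d3, a target of glucocorticoid receptor, rose by 0.51 (adjusted p = 0.0162), with a median of -0.04. The Notch target Hes1 had a difference of -0.22 (adjusted p = 0.0798). Of 14 clock genes 8 rose and 2 fell. They include Per2 (2.84), Dbp (2.21) and Nr1d2 (0.98), while Nr1d1, whose product is described as a repressor of Cdkn1a, had 0.50 (SE 0.14, limma adjusted p = 0.052) and Nono, whose protein is described as an activator of Cdkn2a with PER, had -0.03. All 23 tested genes of replication and mitosis rose, among them Ttk (0.79), Top2a (0.56) and Bub1 (0.54). The median over this list was 0.51, and its genes averaged 9.16 ± 0.07 (SD, n = 4) over WT and 9.65 ± 0.03 over Cry DKO lines.

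**Figure D4:**
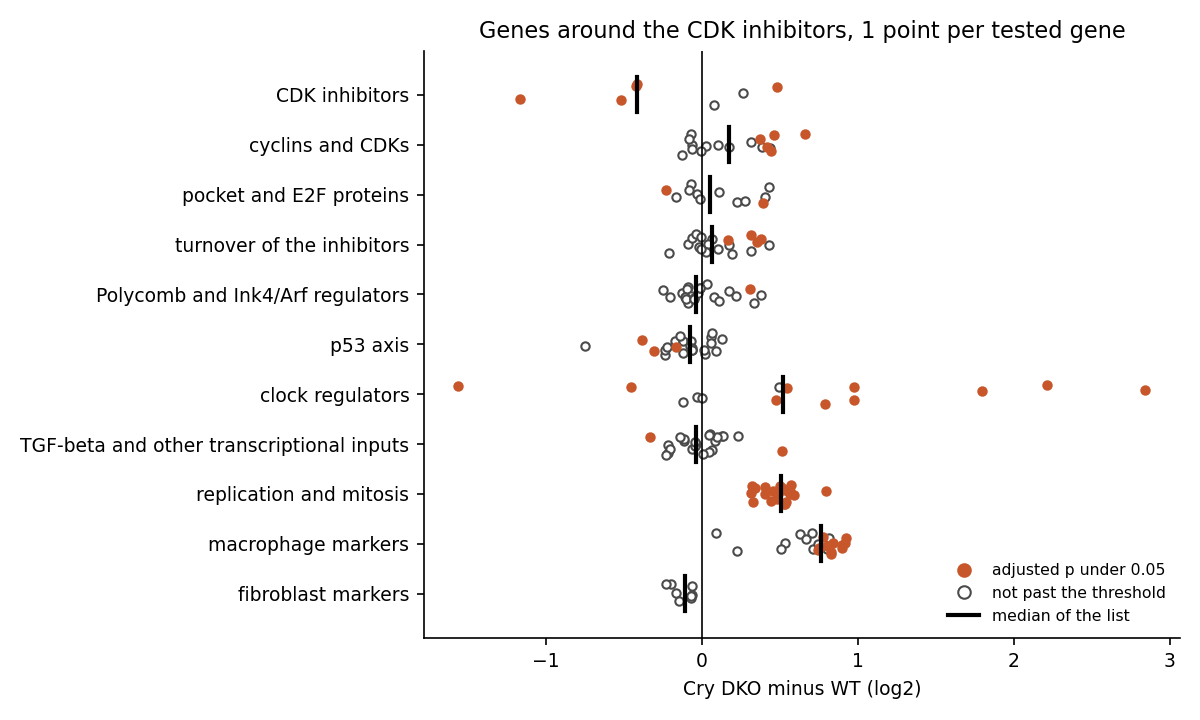
Difference between genotypes (Cry DKO minus WT, log2) of every tested gene in each list, 1 point per gene with random vertical spread; filled points passed an adjusted p of 0.05 and black bars are list medians. The 7 CDK inhibitors spread from -1.17 to 0.48, while all 23 replication and mitosis genes lie above 0.

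The genes whose signal was most like each inhibitor's over the 8 lines were found by Pearson's r, given as a description; the 8 values share the difference between genotypes and the arrays. For Cdkn1c they were Mrvi1 (r = 0.994), Rnf41 (0.987) and Myl9 (0.984), the regulatory light chain of smooth muscle myosin. For Cdkn2b they were Dab2ip (0.991), Aplp1 (0.986) and Ptpra (0.984), and for Cdkn1a they were Ppp2r5b (0.987), Wnt5a (0.978) and Rab2a (0.972). Cdkn2a was closest to Fitm2 (0.979), Nme2 (0.973) and Tmem53 (0.971). Cdkn2c was closest to the lamin gene Lmnb1 (0.979), Tmpo (0.978), a lamina-associated protein, and Cdt1 (0.978), which licenses replication origins. Cdkn2d was closest to Taf1d (0.979), Acat1 (0.969) and Irf9 (0.968), and Cdkn1b to Ciao1 (0.950), Vcpip1 (0.936) and Lamtor2 (0.930).

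With the genotype means taken out, other genes came closest. They were Zfp654 (r = 0.970) and Golph3l (0.952) for Cdkn1c, Cmtm3 (0.976) and Srpx2 (0.970) for Cdkn2b, Stt3b (0.983) and Ccdc97 (0.982) for Cdkn1a, and Bckdhb (0.983) and Crat (0.976) for Cdkn2a. They were Cyp4f16 (0.973) and Yeats4 (0.965) for Cdkn2c, Mgst1 (0.984) and Mpzl1 (0.981) for Cdkn2d, and Snx16 (0.982) and Eif3m (0.964) for Cdkn1b. No gene was among those closest to its inhibitor by both measures.

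The series as a whole gave 873 called genes of 9511, array medians from 6.78 to 6.79, and a median within-genotype SD of 0.13 over tested genes, against 0.15 over the 9 member probe sets. Of 12 fibroblast markers 8 were tested and none passed in limma (2 had an unadjusted p under 0.05), and Col1a1, Col1a2, Col3a1, Fn1 and Vim were among them. All 8 had a lower mean in Cry DKO than in WT lines, with a median difference of -0.11. Macrophage markers were present and higher in Cry DKO lines: of 22 tested 11 rose and none fell, with a median of 0.76, Lyz2 rising by 0.83 and Csf1r by 0.84. Their mean ranged from 8.12 to 8.79 in WT and from 8.77 to 9.73 in Cry DKO lines. No marker of endothelial cells passed the floor. Fewer cells of a type and less RNA per cell cannot be told apart in such bulk samples.

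The macrophage marker mean differed between the genotypes (8.50 in WT and 9.21 in Cry DKO lines), so as a covariate it shares part of the genotype difference. Whether it moves with the inhibitors within a genotype was not tested. With it as a covariate 1 inhibitor gene was called in place of 5. Over all 9511 genes, 33 were called with the covariate in place of 873. Cdkn1c kept its call in the gene fit (-0.86, SE 0.15, limma adjusted p = 0.039) and lost it in the probe set fit (limma adjusted p = 0.055). Cdkn2b had -0.56 (SE 0.11, adjusted p = 0.0683), Cdkn1a -0.44 (SE 0.17, adjusted p = 0.232), Cdkn2c 0.37 (SE 0.15, adjusted p = 0.259) and Cdkn2a -0.22 (SE 0.15, adjusted p = 0.522). The estimates for Cdkn2b and for the brighter Cdkn1a probe set were as large as without the covariate, at a higher SE. Those for Cdkn1c, Cdkn2a and Cdkn2c were smaller, and so was that for the dimmer Cdkn1a probe set, at -0.23 (SE 0.10, adjusted p = 0.312 in the limma probe set fit). Among the called list genes and neighbours named above, Per2, Dbp, Nr1d2 and Top2a kept their calls with the covariate and the others did not. Dmrta2 went from -0.51 to -0.17 (limma adjusted p = 0.671). The estimates of the other called neighbours did not shrink: Rnf11 stood at -0.53, Tnfrsf22 at -0.50, BC004004 at -0.25 and Srsf3 at 0.32. The part of these cells in the differences was not tested beyond this. The marker mean of Cry DKO replicate 3 (8.77) was slightly below that of WT replicate 1 (8.79). Between those lines Cdkn1c was 8.07 against 8.92, Cdkn2b 10.6 against 11.0, Cdkn1a 12.2 against 12.3, Cdkn2a 7.12 against 7.36, and Cdkn2c 8.06 against 7.81. These values set 1 line against 1 line, and no difference between them was tested.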

How the data were processed

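Total RNA (5 ug per sample, extracted with Trizol per the labels' protocols) of 4 WT and 4 Cry DKO lines was read on 8 Affymetrix arrays. The authors deposited 1 value per probe set and array, taken as log2 from the range of 0.0675 to 14.3. How they summarised and normalized the probes is not stated in the sources used here; GCOS is named in the submitters' processing notes. Arrays carry no depth, and the number of lines limits the precision.

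Of 30506 probe sets, 24838 name 1 gene, 658 several and 4949 none, and 61 are controls. Probe sets of 1 gene with a mean at or above the 40th percentile were tested, and a gene was read from its brightest probe set. Differences were fitted with limma 3.58.1 in R 4.3.3 (lmFit, eBayes with an intensity trend, Benjamini-Hochberg adjustment, adjusted p under 0.05), and the fit was tested on simulated data. Pairs of members were compared by exact permutation. Named genes are the members, the 3 genes of smallest p in each list with some regulators in any case, the 3 nearest tested genes on each side, and the genes most like each member. The members and lists were chosen with earlier results of these data known. The lists were cyclins and CDKs, pocket and E2F proteins, turnover, Polycomb and Ink4/Arf regulators, p53 axis, clock, TGF-beta and other inputs, and replication and mitosis, with markers of fibroblasts, macrophages, endothelium, epithelium, skeletal muscle and neural cells. The floor left 1 epithelial, 2 skeletal muscle and 1 neural marker, and none passed in limma.

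Alternatives changed the normalization, floor, empirical Bayes step, array weights, choice of probe set, replicate block, macrophage covariate and the arrays used. No array pair held identical values.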

Additional observations from a re-analysis of the deposited data

Results flagged for a closer look

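In groups of 4 lines, 5 of 62 groups examined had 1 line whose gap to its nearest neighbour took a larger share of the group's range than Dixon's 95% critical value; chance gives about 1 in 20. For Cdkn2c in WT lines the share was 0.931, from replicate 3 at 7.48. For Cdkn2b in Cry DKO lines it was 0.944, from replicate 4 at 10.3. For Cdkn1a minus Cdkn1b in Cry DKO lines it was 0.888, from replicate 4 at 2.67. For Cdkn2b minus Cdkn2c in WT lines it was 0.904, from replicate 3 at 3.68. For the mean of the fibroblast markers in WT lines it was 0.907, from replicate 2 at 13.3.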

How the results depend on the processing

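With the macrophage mean as a covariate, limma called 1 member gene (4 at an unadjusted p under 0.05), 33 genes in all, 0 member probe sets (5 at an unadjusted p under 0.05) and 25 probe sets in all. Leaving out 1 array gave 3 to 4 member genes, 386 to 684 genes in all, 4 to 5 member probe sets and 482 to 859 probe sets in all. The other settings gave 4 to 5 member genes and 5 to 6 member probe sets. Cdkn1b turned to -0.0629 with the mean of its probe sets, to -0.0157 without WT replicate 3 and to -0.0657 without Cry DKO replicate 4; the leave-one-out range was -0.0657 to 0.151. Cdkn2a also missed the threshold with no floor (limma adjusted p = 0.0503), was not tested with the floor at the 60th percentile, and Cdkn1a missed it with no intensity trend (limma adjusted p = 0.0639). The 9 pairs kept their direction in all settings run. Without 1 line, where the smallest exact p is 0.0286, Cdkn1a minus Cdkn1c ranged from 0.66 to 0.87 and passed in 1 of 8 cases. Cdkn2a minus Cdkn2d ranged from -0.77 to -0.59 and Cdkn2b minus Cdkn2d from -0.89 to -0.67, each passing in 7 of 8. In these pairs the genotypes did not overlap in any case, and the higher p came from groups of unequal size. Cdkn1a minus Cdkn1b ranged from -0.60 to -0.23 and passed in 1 of 8. The deviations of same-numbered lines correlated at 0.36, 0.12, 0.23 and -0.01 for replicates 1 to 4, and those of replicates 1, 2 and 3, but not 4, were closest to their own number. This is a hint of pairing in the data; as the labels give none and not every correlation exceeded 0.1, the lines were treated as unpaired. With the replicate block 1051 genes, 1423 probe sets, 5 member genes and 6 member probe sets were called, no member call changed, and Cdkn2d (0.26) had a limma adjusted p of 0.0582 in place of 0.136. The causes of these shifts were not tested.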
